A study of Mus musculus with 9 samples.

Results

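The enzymes that build fatty acids and cholesterol, with their regulators and 1 carrier, were followed through a set of 32 genes named by symbol, of which 30 had a probe on the array. The set held 12 genes of fatty acid synthesis, 16 of sterol synthesis and 4 regulators or carriers. Each gene was read through the probe with the highest mean log2 signal over the 9 arrays. Signals passed the background limit on all 3 arrays of at least 1 group for 27 of the 30 genes, against 9912 of 15967 genes with a symbol on the whole array. Me1 and Acat2 had no probe here. Acsl3, Fdft1 and Srebf1 were above background on no array, and a silent probe gives no level for its gene. The rule that names the 32 genes uses no measured value.

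Fatty acid synthesis turns citrate and acetate into cytosolic acetyl-CoA, then into malonyl-CoA and palmitate, which elongases and desaturases extend and unsaturate. Sterol synthesis condenses acetyl-CoA into mevalonate, builds isoprenoid units and squalene from it, closes the squalene ring to lanosterol and trims lanosterol to cholesterol. Both pathways are driven by the sterol regulatory element binding proteins, encoded by Srebf1 and Srebf2, which Insig proteins hold in the endoplasmic reticulum when sterol is plentiful. In beta cells, cholesterol and lipid supply bear on the secretory granules and on the membrane at which they fuse.

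RNA of 3 sample groups, each with 3 Illumina mouse bead arrays, was compared. Induced cells were those positive for green fluorescent protein (GFP) in a cell sort of the adult pancreas of Rag-/- mice, which lack mature T and B lymphocytes, 1 month after an adenovirus called M3. The labels put the insulin-positive share of the sorted cells at 22%, and about 5000 cells went into a sample. An islet sample consisted of 4 to 5 hand-picked islets of adult mice with a Pdx-GFP transgene, by its name GFP under the promoter of the pancreatic factor Pdx1, and so holds all islet cell types. For a non-islet sample, some 10000 cells were used of the pancreas that remained after islets were taken from GFP transgenic mice, written "pdxa-gfp" in the labels. Virus, sort, mouse line and cell source all differed at once between the induced cells and the other 2 groups and cannot be told apart. The labels speak of independent repeats but name no animals, so p-values reflect only how far these samples scatter, and that scatter may be partly technical.

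The deposited signals were background-subtracted intensities with a mean of 74.2 on every array. Between 13476 and 13763 probes were above background on the 6 induced and islet arrays, against 9210 to 9933 on the 3 non-islet arrays, where the noise was also larger. The 50 brightest probes held 13.1% to 13.4% of the signal on induced arrays, 14.4% to 16.6% on islet arrays and 42.6% to 46.3% on non-islet arrays. Signals of the other genes were therefore compared under 4 scalings: quantile normalisation, used for the values below unless another is named, the values as deposited, a common median of the probes above background on all arrays, and an equal noise level. Under these 4 scalings the median log2 difference of all 13927 kept probes was -0.04, -0.07, -0.02 and 0.07 for induced cells against islets, 0.05, 0.27, -0.00 and 1.03 for induced against non-islet cells, and 0.09, 0.35, 0.01 and 0.94 for islets against non-islet cells. A difference from non-islet cells has a firm direction only where it was called alike under all 4.

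Markers of the labelled tissues were in place, with other cells beside them. The 7 beta cell markers with a probe summed to 7626 to 8129 deposited signal units on induced arrays, 17542 to 20509 on islet arrays and 70.2 to 92.7 on non-islet arrays, where Ucn3, G6pc2, Slc30a8 and Nkx6-1 were not above background. The 8 acinar markers, all above background in every group, summed to 27660 to 29446 on induced, 33505 to 38508 on islet and 120441 to 130398 on non-islet arrays. The 7 duct markers summed to 5882 to 5914 on induced, 1503 to 1694 on islet and 1419 to 1592 on non-islet arrays, and all 7 were above background on the induced arrays. The 7 endothelial markers summed to 29.7 to 36.1 on induced, 2367 to 2506 on islet and 159 to 195 on non-islet arrays. The part that these differences in cell content play in the results below was not tested, and fewer cells of a type cannot be told apart from less RNA per cell.

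Promoters are shown for 4 genes that stand at the ends of the comparison of induced cells with islets: Hmgcs1 and Insig1, higher in induced cells, and Acss2 and Elovl6, lower in them. Each line gives the 250 bases before the gene's start on the plus strand of GRCm38.p6, from RefSeq, with motif letters in capitals. The motifs were the sterol regulatory element in its full form and its short form TCACNCCAC, the E-box CACGTG, the CCAAT box CCAAT and the Sp1 box GGGCGG, searched on both strands. The windows lie at chr13:119690101-119690350 for Hmgcs1, chr5:28071162-28071411 for Insig1, chr2:155517793-155518042 for Acss2 and chr3:129532136-129532385 for Elovl6.
Hmgcs1: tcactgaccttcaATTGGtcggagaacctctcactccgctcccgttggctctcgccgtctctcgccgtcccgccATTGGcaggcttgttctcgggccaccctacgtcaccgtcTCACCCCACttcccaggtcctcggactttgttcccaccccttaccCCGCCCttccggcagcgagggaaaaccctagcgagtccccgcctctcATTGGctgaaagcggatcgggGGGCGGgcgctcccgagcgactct
Insig1: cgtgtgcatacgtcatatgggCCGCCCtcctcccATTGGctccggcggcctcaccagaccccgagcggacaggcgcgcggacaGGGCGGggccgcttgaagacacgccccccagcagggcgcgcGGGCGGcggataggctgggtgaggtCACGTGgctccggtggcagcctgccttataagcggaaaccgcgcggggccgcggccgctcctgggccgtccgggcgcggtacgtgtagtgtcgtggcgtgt
Acss2: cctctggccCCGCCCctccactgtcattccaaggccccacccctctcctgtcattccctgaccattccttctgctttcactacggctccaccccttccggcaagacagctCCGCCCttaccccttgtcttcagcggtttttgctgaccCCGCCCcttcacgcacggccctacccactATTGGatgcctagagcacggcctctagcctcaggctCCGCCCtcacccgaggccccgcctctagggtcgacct
Elovl6: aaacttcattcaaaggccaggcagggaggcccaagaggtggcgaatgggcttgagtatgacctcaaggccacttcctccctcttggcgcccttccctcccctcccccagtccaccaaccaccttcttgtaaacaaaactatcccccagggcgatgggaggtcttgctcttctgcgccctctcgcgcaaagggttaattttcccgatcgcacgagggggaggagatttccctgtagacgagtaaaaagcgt
In Hmgcs1 the short sterol element reads TCACCCCAC and its first base lies 137 bases before the start, between CCAAT boxes that read as ATTGG on this strand. Insig1 holds an E-box, 1 CCAAT box and 3 Sp1 boxes, Acss2 holds 1 CCAAT box and 4 Sp1 boxes, and none of these letters occurs in the Elovl6 window.

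Over windows of 300 bases, which add the 50 bases after the start, 25 of the 32 genes had an entry, with 31 windows among them. CCAAT stood in 71.0% of these 31 windows, against 37.4% of all 32851 RefSeq windows, and GGGCGG in 71.0% against 35.7%. The E-box stood in 4 of the 31 windows, 12.9%, against 7.15% of all windows; the genes were Dhcr7, Elovl5, Hsd17b7 and Insig1. The short sterol element occurred in the Hmgcs1 window alone among the 31, 3.23%, against 1.24% of all windows, and the full element in none of them, against 0.0913% of all. A match is a run of letters, not a bound site.

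The comparison of induced cells with islets asks how the lipid genes of the induced cells compare with those of the tissue that holds the natural beta cells. The differences went both ways. Of the 27 genes, 9 were higher in induced cells, 10 were lower and 8 did not pass the test (limma, adjusted p under 0.05 by Benjamini-Hochberg over all kept probes). That is 70.4% called, against 48.6% of all kept probes; by direction the background was 22.5% called higher and 26.1% called lower. The median log2 difference was -0.09 over the 27 genes and -0.04 over all kept probes.

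Fatty acid and sterol steps leaned apart in this comparison. Of 10 measured fatty acid genes, 1 rose, 5 fell and 4 did not pass, with a median log2 difference of -0.31. Of 14 sterol genes, 6 rose, 4 fell and 4 did not pass, with a median of 0.12. Of the regulators, Srebf2 and Insig1 rose and the sterol carrier Stard4 fell. The fatty acid median was -0.17 with deposited values and -0.074 with a common median, and turned to 0.18 with equal noise. The sterol median was above 0 under all 4 scalings, but only 0.037 with deposited values and 0.061 with a common median. With equal noise it was 0.32. With deposited values 5 sterol genes rose and 6 fell, so the lean of the sterol genes was not stable. With deposited values 8 of the 27 genes rose and 11 fell, against 22.5% and 33.9% of all kept probes; with a common median 7 rose and 9 fell, against 21.7% and 23.5%; with equal noise 14 rose and 4 fell, against 37% and 23.6%. The difference between the medians of these lists was not tested.

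**Figure D1:**
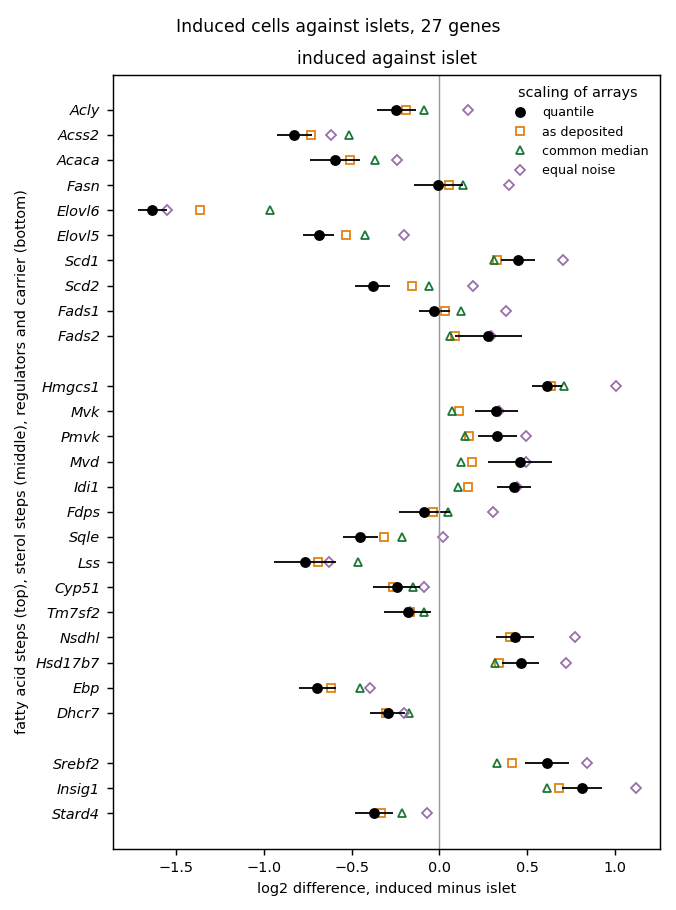
Log2 difference of induced cells minus islets for the 27 measured genes, ordered along the pathways, under 4 scalings; horizontal bars show the SE under quantile normalisation. Elovl6, at -1.64, lies farthest to the left and Insig1, at 0.81, farthest to the right under quantile normalisation, and the points of Sqle, Scd2 and Fasn lie on both sides of 0.

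Of 2 genes of acetyl-CoA supply, Acly was not called between induced cells and islets, and Acss2 was lower by its brighter probe alone. Acly, which cleaves citrate to cytosolic acetyl-CoA, had signals of 4072, 3802 and 3341 on induced arrays, 4337, 4016 and 4956 on islet arrays, and 459.4, 516.2 and 508.9 on non-islet arrays. Induced and islet arrays overlapped, and both stood far above every non-islet array. The log2 difference was -0.25 ± 0.11 (SE, n = 3 arrays a group) for induced cells against islets, with an adjusted p of 0.0931. Against non-islet cells it was 2.88 in induced cells and 3.13 in islets, with adjusted p-values of 1.39e-09 and 7.18e-10 from limma. These were the largest differences from non-islet cells among the 27 genes, and Acly was called higher under all 4 scalings in both groups.

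Acss2, which makes acetyl-CoA from acetate, had signals of 40.9, 37.8 and 39.1 on induced arrays, 72.9, 79.2 and 85.2 on islet arrays, and 11.4, 15.8 and 15.9 on non-islet arrays. The 3 groups did not overlap, and the induced arrays lay between the others. It was lower in induced cells than in islets by a log2 difference of -0.83 ± 0.10 (adjusted p = 3.76e-05) and higher than in non-islet cells by 0.97 (adjusted p = 4.06e-06), calls that held under all 4 scalings. A second Acss2 probe, above background on 2 induced arrays, 1 islet array and all 3 non-islet arrays, read 0.03 for induced cells against islets and -1.24 for induced against non-islet cells, so the probes of this gene went opposite ways against non-islet tissue.

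Malonyl-CoA and palmitate synthesis were read through the genes Acaca and Fasn. Acaca, the carboxylase that makes malonyl-CoA, had signals of 102, 105 and 98.4 on induced arrays, 155, 160 and 165 on islet arrays, and 117, 68.6 and 85.9 on non-islet arrays. It was lower in induced cells than in islets by -0.60 ± 0.14 (adjusted p = 0.0051), a call that was lost with equal noise, where the adjusted p was 0.0782. A second Acaca probe gave 0.19 in that comparison, with an adjusted p of 0.243, and -1.14 against non-islet cells, where the brighter probe gave 0.18. Fasn, the synthase that makes palmitate, had 263, 297 and 260 on induced arrays, 232, 263 and 337 on islet arrays, and 231, 200.3 and 252 on non-islet arrays. The islet arrays overlapped both other groups for Fasn, while every induced array lay above every non-islet array. No pair of groups passed the test under quantile normalisation. For induced cells against islets the log2 difference was -0.01 (adjusted p = 0.977), and 0.40 with equal noise, where it was called. Against non-islet cells it was 0.25 in induced cells (adjusted p = 0.114). Under the 3 other scalings Fasn was called higher in that comparison, at 1.16 with deposited values, 0.30 with a common median and 2.64 with equal noise. Without islet array 1 Fasn was called higher in islets than in non-islet cells, at 0.38 (adjusted p = 0.0351), against 0.26 with all arrays.

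Among the measured genes of the set, the elongase gene Elovl6 had the largest fall in induced cells against islets. Elongase genes did not all fall in this comparison. Outside the set, Elovl1 and Elovl7 were called higher in induced cells and Elovl2 and Elovl4 lower, each under all 4 scalings. Elovl6, which extends palmitate to stearate, had signals of 20.0, 18.6 and 16.8 on induced arrays and 84.6, 81.5 and 81.5 on islet arrays, and was not well above background on the non-islet arrays. The induced and islet arrays were far apart, with a log2 difference of -1.64 ± 0.08 (adjusted p = 3.46e-08) that was called under all 4 scalings, at values between -0.96 and -1.64. Against non-islet cells Elovl6 was at least 1.45-fold higher in induced cells and at least 4.49-fold higher in islets, where "at least" sets the bright group's mean against the mean background limit of the dim group's arrays. Elovl5, an elongase of polyunsaturated fatty acids, had 532, 505 and 529 on induced arrays, 837, 793 and 915 on islet arrays, and 395, 421 and 409 on non-islet arrays. The induced arrays lay between the others without overlap; Elovl5 was lower than in islets by -0.69 (adjusted p = 6.02e-05), a call lost with equal noise, where it was -0.20, and higher than in non-islet cells by 0.34 (adjusted p = 0.00392), a call made under all 4 scalings.

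The stearoyl-CoA desaturases, which place the first double bond in palmitate and stearate, moved in opposite directions. Scd1 had 61.2, 75.4 and 73.4 on induced arrays, 47.2, 47.8 and 49.2 on islet arrays, and 151, 135 and 132 on non-islet arrays. It was the fatty acid gene that rose in induced cells against islets, by 0.45 ± 0.10 (adjusted p = 0.00279), and did so under all 4 scalings. Scd2 had 1278, 1303 and 1117 on induced arrays, 1550, 1507 and 1770 on islet arrays, and 1102, 1076 and 1169 on non-islet arrays. Every induced array lay below every islet array for Scd2, with a difference of -0.38 ± 0.10 (adjusted p = 0.00843) that was not called under the other scalings and was 0.19 with equal noise. Against non-islet cells Scd1 was -0.89 in induced cells and -1.33 in islets; the difference of induced cells turned to 0.15 with deposited values and 1.42 with equal noise, and that of islets to 0.72 with equal noise. The desaturases of polyunsaturated fatty acids, Fads1 and Fads2, did not pass the test between induced cells and islets, at -0.03 and 0.28. With equal noise both were called higher, at 0.38 and 0.29.

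A gene at the entry to sterol synthesis, Hmgcs1, was higher in induced cells. Hmgcs1, which makes HMG-CoA, a precursor of mevalonate, had signals of 872, 782 and 818 on induced arrays, 562, 532 and 510 on islet arrays, and 258, 259 and 273 on non-islet arrays. The 3 groups did not overlap. Hmgcs1 was higher in induced cells than in islets by 0.61 ± 0.09 (adjusted p = 0.000132) and higher than in non-islet cells by 1.60 (adjusted p = 2.11e-08), and in islets it was higher than in non-islet cells by 0.99 (adjusted p = 1.18e-06). All 3 calls held under all 4 scalings.

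**Figure D2:**
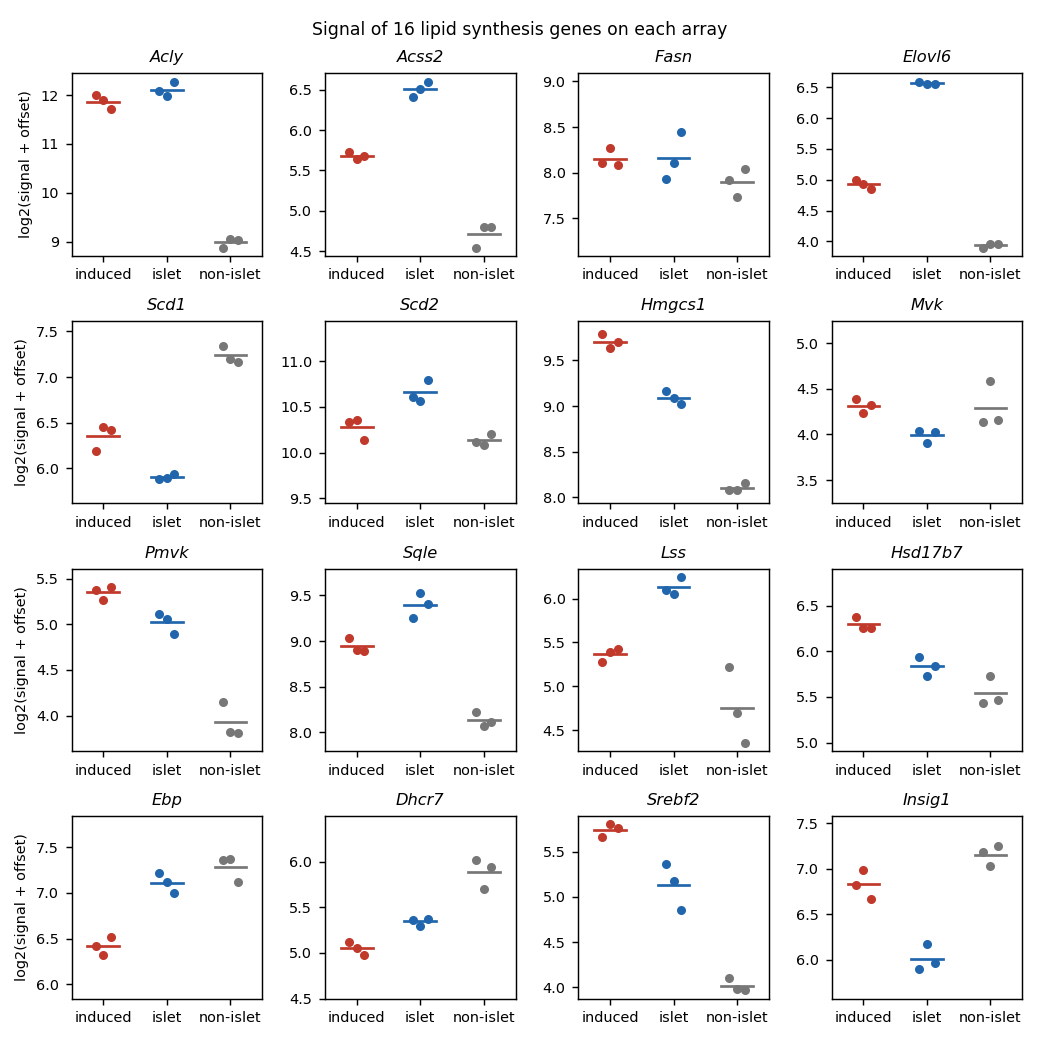
Quantile-normalised signal of 16 genes on each array, as log2 of the signal plus the offset of 11.9, for induced, islet and non-islet arrays; each point is an array and each line a group mean. The induced points lie above the islet points for Hmgcs1, Srebf2 and Insig1 and below them for Elovl6, Acss2 and Ebp.

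In the mevalonate branch between HMG-CoA and farnesyl units, Pmvk, Mvk, Mvd and Idi1 were dim on these arrays. Fdps was brighter, with mean signals of 265 on induced, 284 on islet and 137 on non-islet arrays. Pmvk, the phosphomevalonate kinase, had 29.5, 26.6 and 30.6 on induced arrays and 22.6, 21.5 and 17.7 on islet arrays, and was not well above background on non-islet arrays. Every induced array lay above every islet array, and the difference of 0.33 ± 0.11 (adjusted p = 0.0313) was called under all 4 scalings. The call was lost without induced array 1 or 3 or islet array 2 or 3, with adjusted p-values from 0.0628 to 0.124. Pmvk was at least 1.94-fold higher in induced cells and at least 1.54-fold higher in islets than in non-islet cells.

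Mvk, the kinase just before it, had 9.01, 6.86 and 8.04 on induced arrays, 4.47, 3.06 and 4.33 on islet arrays, and 5.63, 12.01 and 5.94 on non-islet arrays, all close to or below the offset of 11.9. Its rise of 0.32 over islets (adjusted p = 0.048) was not called with deposited values or a common median, nor without any 1 of the 6 induced and islet arrays, where adjusted p-values ran from 0.0699 to 0.154. Idi1, the isomerase of isoprenoid units, rose by 0.43 over islets (adjusted p = 0.00402), a call lost with a common median, and was called higher in both groups under all 4 scalings than in non-islet cells, where it was not well above background. Mvd, the decarboxylase between them, differed by 0.46 with an adjusted p of 0.058, and was called with equal noise, at 0.49. Fdps, which joins the units to farnesyl diphosphate, overlapped between induced cells and islets, at -0.09 (adjusted p = 0.673), but was called higher with equal noise, at 0.31. It was higher than in non-islet cells by 0.89 in induced cells and 0.97 in islets, called under all 4 scalings.

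Sqle, the epoxidase that acts on squalene, went the other way from Hmgcs1. Its signals were 512, 465 and 463 on induced arrays, 598, 723 and 664 on islet arrays, and 288, 256 and 265 on non-islet arrays. No 2 groups overlapped, and Sqle was lower in induced cells than in islets by -0.45 ± 0.10 (adjusted p = 0.00286); with equal noise the value was 0.020 and was not called. A second Sqle probe gave -0.81 in that comparison (adjusted p = 0.000516). Both groups were above non-islet cells by the brighter probe, by 0.80 in induced cells and 1.25 in islets, with calls under all 4 scalings. The second probe gave 1.08 in islets (adjusted p = 2.72e-05) and 0.27 in induced cells, where it was not called (adjusted p = 0.103).

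Lss, which closes the ring to lanosterol, had 26.9, 30.2 and 31.0 on induced arrays, 56.7, 54.4 and 64.1 on islet arrays, and 25.2, 13.9 and 8.52 on non-islet arrays. The induced arrays were all below the islet arrays, by a log2 difference of -0.77 ± 0.18 (adjusted p = 0.00373), and the call held under all 4 scalings. Cyp51, which removes a methyl group from lanosterol, did not pass the test against islets, at -0.24 (adjusted p = 0.162), but was called lower with deposited values, at -0.26. It was higher than in non-islet cells, where 1 of 3 arrays was above background, by 1.00 in induced cells and 1.24 in islets, called under all 4 scalings. Tm7sf2, a sterol reductase, passed the test in no comparison under quantile normalisation.

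Hsd17b7 and Nsdhl, which work in the removal of further methyl groups, were higher in induced cells. Hsd17b7 had 71.1, 64.7 and 64.5 on induced arrays, 49.4, 41.2 and 45.3 on islet arrays, and 31.4, 41.1 and 32.3 on non-islet arrays. Every induced array was above every other array for this keto-reductase, by 0.46 ± 0.11 over islets (adjusted p = 0.00356) and 0.75 over non-islet cells (adjusted p = 4.93e-05). Nsdhl, the dehydrogenase of the same complex, averaged 182 ± 4.74 on induced arrays, 132 ± 8.70 on islet arrays and 107 ± 16.4 on non-islet arrays (SD, n = 3 each), and was 0.43 higher in induced cells than in islets (adjusted p = 0.00666). Both rises over islets were called under all 4 scalings. The smaller difference of Hsd17b7 in islets against non-islet cells, at 0.29, was not called without islet array 1 or 3 or non-islet array 1 or 3, with adjusted p-values from 0.0624 to 0.0988. Of 2 dimmer Nsdhl probes, 1 gave 0.03 (adjusted p = 0.906) and the other 0.95 (adjusted p = 0.000221).

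Ebp, the isomerase of the sterol ring, had 73.6, 67.7 and 79.4 on induced arrays, 137, 127 and 116 on islet arrays, and 152, 153 and 127 on non-islet arrays. The induced arrays stood below all 6 others, by -0.70 ± 0.11 against islets (adjusted p = 0.000216), called under all 4 scalings. Against non-islet cells Ebp was -0.87 in induced cells, but 0.17 with deposited values and 1.45 with equal noise, each of them called. Dhcr7, which makes cholesterol from its last precursor on 1 branch, had 22.9, 21.2 and 19.5 on induced arrays, 29.3, 27.5 and 29.4 on islet arrays, and 53.0, 40.2 and 49.3 on non-islet arrays. The groups kept apart, and Dhcr7 was lower in induced cells than in islets by -0.30 (adjusted p = 0.0309). That call was lost with equal noise, where the adjusted p was 0.0554, and without any 1 of the 6 induced and islet arrays, with adjusted p-values from 0.0519 to 0.112.

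When the sterol genes were divided at squalene, a division made after their values were seen and so given without a test, 4 of 6 genes before squalene rose in induced cells against islets and none of the 6 fell, with a median of 0.38. Of the 8 genes from squalene onwards, 2 rose and 4 fell, with a median of -0.27. Of all kept probes 22.5% were called higher and 26.1% lower. Before squalene, Mvk, Mvd and Idi1 had signals near the offset, and the calls of Mvk and Pmvk were lost when single arrays were left out. The medians before squalene stayed above 0 and those from squalene onwards stayed below 0 under all 4 scalings. The calls made under all 4 were fewer, with 2 rises and 0 falls before squalene, and 2 rises and 2 falls from squalene onwards. Of all kept probes 18.8% were called higher and 18% lower in this way.

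The 2 regulators with a signal were also higher in induced cells than in islets. Srebf2, the transcription factor of sterol synthesis, had 38.7, 43.9 and 42.4 on induced arrays and 29.3, 24.3 and 17.0 on islet arrays, and was not well above background on non-islet arrays. The groups did not overlap, and Srebf2 was higher in induced cells than in islets by 0.61 ± 0.12 (adjusted p = 0.00177). It was at least 2.55-fold higher in induced cells and at least 1.67-fold higher in islets than in non-islet cells, and all 3 calls held under all 4 scalings. Srebf1, the factor of fatty acid synthesis, had values between -6.24 and -1.31 on the 9 arrays, none above background.

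Insig1, a sterol-responsive brake on the processing of both factors, showed the largest rise over islets among the 27 genes under quantile normalisation; with a common median Hmgcs1, at 0.71, exceeded Insig1, at 0.61. Its signals were 101, 115 and 89.9 on induced arrays, 47.9, 60.3 and 50.7 on islet arrays, and 133, 119 and 140.0 on non-islet arrays. Every induced array lay above every islet array, by 0.81 ± 0.11 (adjusted p = 0.000126), and a second probe gave 1.04 (adjusted p = 3.66e-06); the call held under all 4 scalings. Against non-islet cells Insig1 was -0.32 in induced cells and -1.14 in islets, but 0.65 in induced cells with deposited values, and 2.00 and 0.89 in induced cells and islets with equal noise. That difference of induced cells also lost its call when induced array 1, induced array 3 or non-islet array 3 was left out, with adjusted p-values from 0.0555 to 0.0977. Stard4, a carrier of cholesterol between membranes, fell by 0.38 against islets on the log2 scale (adjusted p = 0.0136), a call lost with equal noise.

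Set side by side, 7 genes were higher in induced cells than in islets under all 4 scalings, namely Scd1, Hmgcs1, Pmvk, Nsdhl, Hsd17b7, Srebf2 and Insig1, and 4 were lower, namely Acss2, Elovl6, Lss and Ebp. Of all kept probes 18.8% were called higher and 18% lower in this way.

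A ratio of 2 probes within an array does not change when the whole array is multiplied by a factor, as in the common median and equal noise scalings, though quantile normalisation can change it. Log2 ratios of deposited signals for 3 pairs, picked after the values were seen, are given as a description. An exact test of 3 arrays against 3 cannot give a p-value below 0.1, so no p-value is given. The log2 ratio of Scd1 to Scd2 averaged -4.04 ± 0.20 on induced arrays, -4.67 ± 0.07 on islet arrays and -3.61 ± 0.15 on non-islet arrays (SD, n = 3 each), and the 3 groups did not overlap. The ratio of Sqle to Hmgcs1 averaged -0.75 ± 0.06 on induced arrays, 0.25 ± 0.15 on islet arrays and 0.04 ± 0.13 on non-islet arrays. All 3 induced arrays lay below all 6 others for this ratio, while islet and non-islet arrays overlapped. The ratio of Insig1 to Hmgcs1 averaged -2.92 ± 0.26 on induced arrays, -3.18 ± 0.22 on islet arrays and -1.19 ± 0.10 on non-islet arrays; induced and islet arrays overlapped, and both lay below every non-islet array. Where the arrays of 2 groups kept apart, the paired genes did not change alike between those groups. Where they overlapped, the ratio shows no such difference. That holds for Insig1 and Hmgcs1 between induced cells and islets, and for Sqle and Hmgcs1 between islets and non-islet cells. A further pair not in the figure, Elovl6 to Elovl5, averaged -4.96 ± 0.15 on induced and -3.14 ± 0.09 on islet arrays, which did not overlap. Elovl6 was not well above background on non-islet arrays, so that ratio is not given there. The ratios give no level of either gene of a pair.

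**Figure D3:**
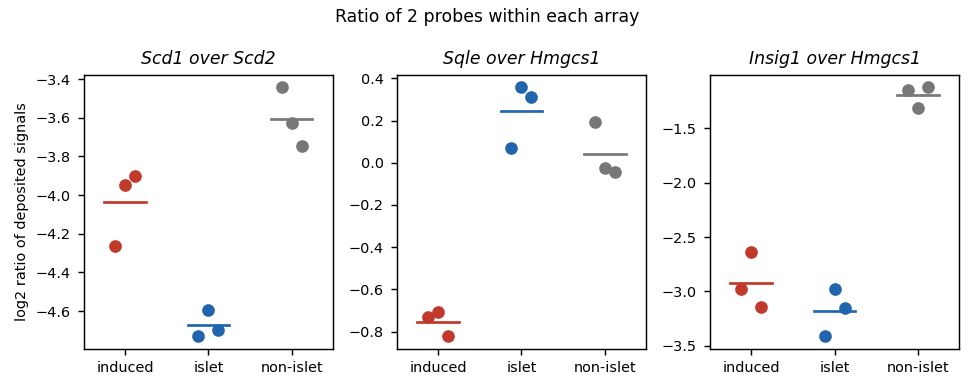
Log2 ratio of 2 probes' deposited signals on each array for Scd1 over Scd2, Sqle over Hmgcs1 and Insig1 over Hmgcs1, in induced, islet and non-islet arrays; points are arrays and lines are group means. The ratio of Sqle to Hmgcs1 lies between -0.82 and -0.71 on the induced arrays and between -0.04 and 0.36 on the other 6.

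The comparison of induced cells with non-islet cells sets the sorted cells against pancreas cells that remained after islets were taken. Of the 27 genes, 15 were higher in induced cells, 5 were lower and 7 did not pass, so that 74.1% were called, against 76.2% of all kept probes. By direction the background was 39.6% called higher and 36.5% called lower. Fatty acid genes gave 4 rises and 2 falls among 10, with a median of 0.25, and sterol genes 10 rises and 2 falls among 14, with a median of 0.73. The median over the 27 genes was 0.54, against 0.05 over all kept probes. The number of the 27 above the median of all kept probes was 20, 21, 19 and 21 under quantile, deposited, common median and equal noise scaling.

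Under all 4 scalings 14 genes were higher in induced cells than in non-islet cells, and 34.2% of all kept probes were. They were Acly, Acss2, Elovl6 and Elovl5 of the fatty acid genes, Hmgcs1, Pmvk, Idi1, Fdps, Sqle, Lss, Cyp51, Nsdhl and Hsd17b7 of the sterol genes, and Srebf2. No gene was lower under all 4 scalings, as were 3.99% of all kept probes. A further 7 genes with calls in both directions, depending on the scaling, were Scd1, Scd2, Fads1, Tm7sf2, Ebp, Dhcr7 and Insig1. For deposited values 22 of the 27 were higher and 0 lower, against 56.9% and 22.5% of all kept probes. With a common median 17 were higher and 6 lower, against 37.7% and 39.4%, and with equal noise 27 were higher and 0 lower, against 79.3% and 4.13%.

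Islets were compared with non-islet cells as 2 mixed preparations, not as pure endocrine and exocrine tissue. The islet arrays also carried acinar marker signal of 33505 to 38508 and endothelial marker signal of 2367 to 2506. Of the 27 genes, 17 were higher in islets, 5 were lower and 5 did not pass, so that 81.5% were called, against 74.7% of all kept probes; by direction the background was 40.5% called higher and 34.1% called lower. Fatty acid genes gave 6 rises and 2 falls, with a median of 0.65, and sterol genes 9 rises and 2 falls, with a median of 0.32. For deposited values 22 were higher and 1, Scd1, was lower, against 62.5% and 18.5% of all kept probes. With a common median 16 were higher and 6 lower, against 38.2% and 37%, and with equal noise 26 were higher and 0 lower, against 80% and 4.79%. Under all 4 scalings 16 genes were higher in islets, against 35.5% of all kept probes. These were the 14 named for induced cells together with Acaca, at 0.77, and Stard4, at 0.61, and both comparisons use the same non-islet arrays. Second probes of Acaca and Acss2 went the other way in islets under quantile normalisation. They read -1.32 (adjusted p = 1.89e-06) for Acaca and -1.27 (adjusted p = 2.16e-07) for Acss2, so these genes have no firm direction. None of the 27 was lower under all 4, as were 4.62% of all kept probes, and Scd1, Scd2, Fads1, Dhcr7 and Insig1 had calls in both directions.

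**Figure D4:**
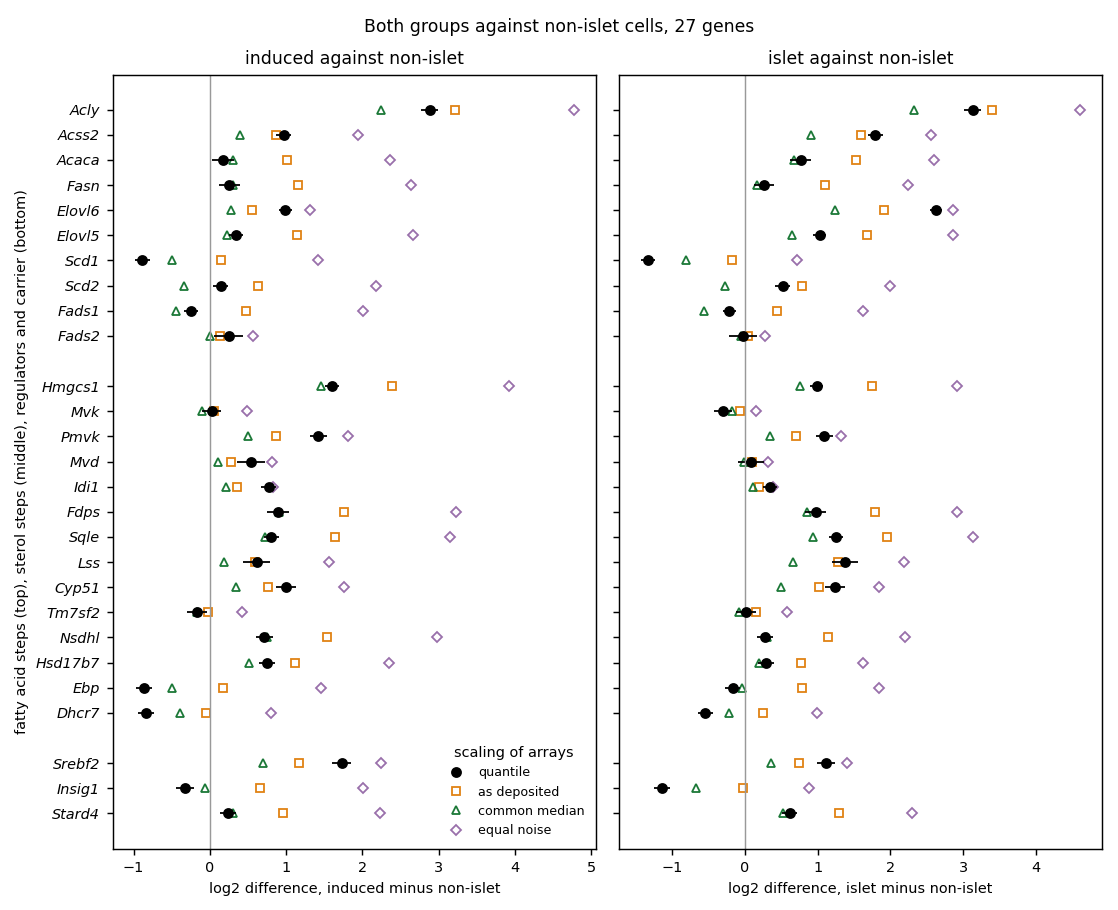
Log2 difference of induced cells minus non-islet cells and of islets minus non-islet cells for the 27 measured genes under 4 scalings. Acly lies at 2.88 and 3.13 under quantile normalisation, while Scd1, Dhcr7 and Insig1 lie on both sides of 0 depending on the scaling.

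The order of the group means under quantile normalisation sorted the 27 genes further. Islets had the highest mean for 13 genes, induced cells for 9 and non-islet cells for 5, and non-islet cells had the lowest mean for 19. The commonest order, islets above induced cells above non-islet cells, held for 12 genes, and for 5 of these both neighbouring differences were called. Induced cells stood above islets and islets above non-islet cells for 7 genes, Hmgcs1, Pmvk, Mvd, Idi1, Nsdhl, Hsd17b7 and Srebf2, with both differences called for 6 of them; for Mvd neither difference passed the test. Scd1 and Insig1 had the order non-islet, induced, islet, with both differences called, and this order changes with the scaling as given above.

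Other genes of lipid metabolism were read from lists around the 2 pathways. The counts of these lists and of those that follow stand beside the shares of all kept probes. For induced cells against islets 22.5% were called higher and 26.1% lower. The shares were 39.6% and 36.5% for induced against non-islet cells, and 40.5% and 34.1% for islets against non-islet cells. A count near these shares is no result about a list, and no list was tested as a set. Msmo1, the methyl sterol oxidase that works between Cyp51 and Nsdhl, did not pass the test between induced cells and islets, at 0.11. It was called higher there with a common median, at 0.25, and with equal noise, at 0.51. Msmo1 was higher than in non-islet cells by 2.26 in induced cells and 2.15 in islets, called under all 4 scalings. Acat1, a thiolase, was the other measured gene of that list and did not pass against islets, at -0.12. Of 8 measured genes of SREBP control and sterol uptake, 1 rose and 2 fell in induced cells against islets. The riser was Scarb1, the receptor for high-density lipoprotein, at 0.83 ± 0.09 (adjusted p = 2.21e-05), called under all 4 scalings, as was the fall of Lrp1, a lipoprotein receptor, at -0.53. The other fall, of Insig2 at -0.50, was opposed by a second Insig2 probe at 0.96 (adjusted p = 0.000597). Against non-islet cells 3 of the 8 rose and 4 fell in induced cells, and 2 rose and 3 fell in islets; Mbtps1, the site 1 protease that cleaves SREBP, rose under all 4 scalings, by 0.98 in induced cells and 0.78 in islets.

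Among 5 measured genes of sterol efflux and its nuclear receptor, 3 rose and 1 fell in induced cells against islets. Of all kept probes 22.5% rose and 26.1% fell. Cyp27a1, which makes an oxysterol from cholesterol, was 1.12 ± 0.20 higher (adjusted p = 0.000782), and Apoe, a lipid carrier that macrophages also make, was -0.89 ± 0.18 lower (adjusted p = 0.00159), both under all 4 scalings. The 5 macrophage markers with a probe summed to 138 to 147 on induced arrays, 262 to 273 on islet arrays and 36.4 to 58.3 on non-islet arrays, and their part in the Apoe values was not tested. Abcg1, an exporter of cholesterol, overlapped between induced cells and islets, at -0.07, and was higher than in non-islet cells by 1.51 in induced cells and 1.58 in islets. In induced cells 5 of the 5 genes were higher than in non-islet cells under quantile normalisation, against 39.6% of all kept probes. Under all 4 scalings 3 of them were higher, against 34.2%. In islets 3 were higher and 1 lower, against 40.5% and 34.1%.

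The other genes of fatty acid synthesis moved strongly in both directions, with 4 rises and 6 falls among 11 in induced cells against islets. Of all kept probes 22.5% rose and 26.1% fell. Elovl4, an elongase of very long fatty acids, was at least 4.58-fold lower in induced cells, where it was not well above background, and had 57.0, 53.9 and 54.4 on islet arrays. Mlxipl, which encodes the glucose-responsive factor ChREBP, had 68.7, 72.2 and 72.6 on induced arrays and 132, 129 and 137 on islet arrays, and was not well above background on non-islet arrays. The induced arrays were at a distinctly lower level for Mlxipl, by -0.80 ± 0.12 (adjusted p = 0.00021), and it was at least 3.95-fold higher in induced cells and at least 6.88-fold higher in islets than in non-islet cells. Mid1ip1, which activates acetyl-CoA carboxylase, had 539, 557 and 574 on induced arrays, 270.0, 317 and 283 on islet arrays, and 219, 211 and 240.0 on non-islet arrays. It was highest on the induced arrays without overlap, by 0.92 over islets (adjusted p = 1.06e-05), and Elovl7 rose by 1.10 (adjusted p = 0.00115). These 4 differences from islets were called under all 4 scalings. Against non-islet cells 4 of the 11 rose and 4 fell in induced cells, beside 39.6% and 36.5% of all kept probes. In islets 5 rose and 4 fell, beside 40.5% and 34.1%. None of the falls held under all 4 scalings.

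Lists next to synthesis were read in the same way for induced cells against islets, where 22.5% of all kept probes rose and 26.1% fell. Of 4 measured genes of NADPH supply, Tkt fell, at -0.49 (adjusted p = 0.00243), a call lost with equal noise. Of 11 genes of glycerolipid synthesis 3 rose and 0 fell, among them Dgat2, which makes triacylglycerol, at 0.91 ± 0.13 (adjusted p = 0.000114), and Chka, a choline kinase, at 0.35, both under all 4 scalings. Of 11 genes of fatty acid oxidation 5 rose and 2 fell. The 5 were Acaa2 at 0.64, Acadl at 0.60, Ehhadh at 0.54, Acadvl at 0.33 and Cpt2 at 0.31, and they rose under all 4 scalings, as Acadm fell, at -0.53. Against non-islet cells the calls of these 3 lists were 0 higher and 4 lower, 3 and 1, and 3 and 5 in induced cells, and 0 and 2, 3 and 2, and 3 and 6 in islets; only the fall of Ppargc1a in islets, at -1.04, was a fall under all 4 scalings.

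**Figure D5:**
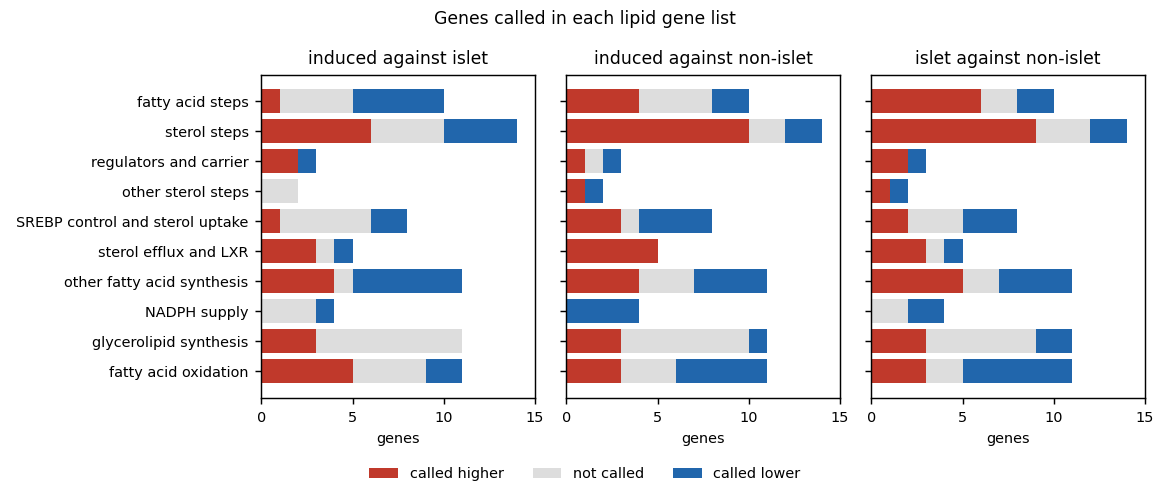
Number of genes called higher, not called and called lower in each lipid gene list, for induced cells against islets, induced against non-islet cells and islets against non-islet cells, under quantile normalisation. In the left panel 6 of 14 sterol genes are called higher and 5 of 10 fatty acid genes lower.

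Fat cells also make these enzymes, and some of their markers were higher in induced cells. Of 10 adipocyte markers with a probe, 4 were above background on all 3 induced arrays, 2 on all 3 islet arrays and 2 on all 3 non-islet arrays. Their summed signal was 1782 to 1930 on induced arrays, 741 to 819 on islet arrays and 349 to 380 on non-islet arrays. Most of it came from Lpl, the lipoprotein lipase, with 1770, 1926 and 1594 on induced arrays, 639, 654 and 728 on islet arrays, and 498, 535 and 529 on non-islet arrays, a rise of 1.37 over islets (adjusted p = 5.84e-07). Plin1, a coat protein of lipid droplets, had 13.0, 15.5 and 13.5 on induced arrays and was not well above background elsewhere, so that it was at least 1.78-fold higher in induced cells than in islets. Pparg, a factor of fat cells, was not well above background on the induced arrays and was at least 2.20-fold lower there than in islets (adjusted p = 1.16e-05). Adipoq and Fabp4 were above background on none of the 3 induced arrays. Lep, Retn and Car3 were above background on none of the 9 arrays. Their part in the rise of Scd1, itself abundant in fat cells, was not tested.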

How the data were processed

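Illumina arrays of 9 mouse pancreas samples (3 groups of 3) were analysed from the deposited intensity values, which the authors made with BeadStudio, per the submitters' processing notes, without version or settings. From the values, the intensities were linear, background-subtracted and scaled to 1 mean. A further table with 36 columns named only by slide position, tied to no sample, was not used, so slides could not be tested as batches. RNA was taken up in Trizol, amplified with an Ambion kit and labelled with biotin, per the labels' protocols.

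Values were quantile-normalised, log2 was taken after adding 11.9, just enough to raise the lowest value to 1. The noise SD of each array came from values below 0 mirrored at 0; above background meant over 1.645 noise SD, and 13927 of 24613 probes passed on all 3 arrays of at least 1 group. Gene names came from the platform annotation (20984 probes with 1 symbol, 1 with several, 3628 with none). Groups were compared with limma 3.58.1 in R 4.3.3 (lmFit and eBayes, all 9 arrays, 6 residual degrees of freedom, two-sided, Benjamini-Hochberg over the kept probes, threshold 0.05); all adjusted p-values are limma's. The procedure was tested on simulated data. Genes with a value for every array are the regulators, 5 key enzymes and, per comparison, the 4 called genes with the largest rise and fall; Elovl5, Acaca and those of other lists shown by array were added after their values were seen. The genes and lists were chosen with earlier results of these data known.

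Alternatives were offsets of 16 and 50, 3 other scalings, 3 filters, a trended variance, array weights, 2 groups alone, a replicate block, other probes, adjustment over genes, a fold limit, and leaving out each array.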

Additional observations from a re-analysis of the deposited data

How the results depend on the processing

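Of 9 genes higher and 10 lower in induced cells against islets, 14 and 4 were called with equal noise, 0 and 1 at 2-fold or more, and 5 were higher when a probe had to be above background on all 9 arrays, which left 18 genes. For induced against non-islet cells, with 15 higher and 5 lower, deposited values gave 0 lower, equal noise 27 higher and 0 lower, array weights 3 lower, and the 2-fold limit 4 higher and 0 lower. For islets against non-islet cells, with 17 higher and 5 lower, deposited values gave 1 lower, equal noise 26 higher and 0 lower, no filter, array weights and the 2 groups alone 3 lower each, and the 2-fold limit 9 higher and 2 lower. The samples were not treated as paired by array number. Deviations of same-numbered arrays correlated between -0.116 and 0.189, and whether such arrays share a source was not tested. With a replicate block 3 genes were lower in islets than in non-islet cells, and the other counts stayed within 1.5 times. Leaving out 1 array gave 7 to 11 higher and 8 to 11 lower for induced cells against islets, 14 to 16 and 3 to 5 for induced against non-islet cells, and 15 to 17 and 3 to 5 for islets against non-islet cells. The 3 lower genes came without induced array 1 or 3 in the second comparison, and without induced array 1, 2 or 3 or islet array 1 or 3 in the third.

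The fatty acid median of -0.31 against islets was -0.17 with deposited values, -0.074 with a common median and 0.18 with equal noise. In induced against non-islet cells it was 0.25, with 0.74 for deposited values and 2.09 for equal noise, and in islets against non-islet cells 0.65, with 1.31, 0.41 for a common median and 2.40. The sterol median was 0.12, 0.73 and 0.32 in the 3 comparisons, and 0.32, 1.655 and 1.74 with equal noise; with a common median the second was 0.28, and with deposited values the third was 0.78. Directions turned with equal noise for Acly (0.16, not called in either setting), Fasn (0.40), Scd2 (0.19) and Sqle (0.020) in induced cells against islets, for Scd1 (1.42), Ebp (1.45), Dhcr7 (0.80) and Insig1 (2.00) in induced against non-islet cells, and for Scd1 (0.72), Mvk (0.16), Ebp (1.84), Dhcr7 (1.00) and Insig1 (0.89) in islets against non-islet cells. With deposited values they turned for Scd1 (0.15), Ebp (0.17) and Insig1 (0.65) in induced cells and for Ebp (0.79) and Dhcr7 (0.26) in islets, with a common median for Scd2 (-0.33 in induced cells, -0.28 in islets), and with the median over all probes for Acss2 (-0.13 in induced cells), each against non-islet cells. Values near 0 that were called in neither setting also changed sign: Fasn against islets, at -0.0062, was 0.052 with deposited values, 0.13 with a common median, 0.00080 with array weights and -0.12 to 0.14 without 1 array, and Mvk in induced against non-islet cells, at 0.02, was -0.10 with a common median and -0.061 to 0.18 without 1 array. Scalings differ by construction in the level they hold fixed; for the other settings the cause was not tested.

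Of the single-gene values under these settings, 989 kept their direction and side of the threshold, 60 lost and 12 gained a call, and 31 turned. Dim probes such as Mvk, Mvd and Idi1 lie near the offset, and 3 arrays a group limit the precision.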
